A study of Homo sapiens with 12 samples.

Results

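Immune checkpoint ligands are proteins of tumour cells that engage inhibitory receptors on lymphocytes and myeloid cells. The 10 genes described here were CD274, PDCD1LG2, CD276, VTCN1, PVR, NECTIN2, CD47, LGALS9, TNFRSF14 and IDO1. They were listed by symbol, each symbol was matched to its Ensembl identifier, and all 10 were found among the 60651 genes of the count table. The listing rule uses no measured value. IDO1 encodes an intracellular enzyme and not a ligand, and it was listed with the others because it restrains T cells from within the tumour cell.

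RNA was sequenced from 2 established cholangiocarcinoma (CCA) cell lines in 12 libraries, 2 per condition. EGI-1 cells, grown in DMEM, received vehicle, 0.5 µM decitabine, 200 nM talazoparib or both agents (combination treatment). HUCCT1 cells, grown in RPMI1640, received vehicle or 1 µM decitabine. All cells were collected after 72 h. Decitabine is a cytidine analogue that traps DNA methyltransferases and lowers DNA methylation, and talazoparib inhibits PARP1 and PARP2 and holds them on DNA. The library names carry the number 50 for talazoparib where the labels give 200 nM. The labels describe each line as cultured cells and name no added immune cells. They do not say whether the 2 libraries of a condition came from separate cultures, so p-values measure the spread between these libraries. Line, medium, decitabine dose and a tag in the library names changed together and cannot be told apart between EGI-1 and HUCCT1. What that tag stands for is not given in the sources used here.

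CD274 (PD-L1) and PDCD1LG2 (PD-L2) bind PD-1 on T cells, and their genes lie side by side. CD276 (B7-H3) and VTCN1 (B7-H4) belong to the same B7 family, and their inhibitory receptors are less well defined. PVR (CD155) and NECTIN2 (CD112) are adhesion molecules that bind the inhibitory receptor TIGIT and the activating receptor CD226. CD47 binds SIRPA on macrophages and blocks engulfment, galectin-9 from LGALS9 binds TIM-3, and TNFRSF14 (HVEM) binds BTLA and CD160 and also the cytokine encoded by TNFSF14. IDO1 turns tryptophan into kynurenine. Interferon-gamma, acting through JAK kinases and then IRF1, is the classic inducer of CD274 and IDO1 in epithelial tumours.

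On GRCh38, with the GENCODE 44 annotation, CD274 occupied chromosome 9 from 5450503 to 5470566 and PDCD1LG2 from 5510531 to 5571282, both on the plus strand and 39964 bases apart. PVR (chromosome 19, 44643798 to 44666162) and NECTIN2 (44846175 to 44889223) were also neighbours, with 180012 bases between them. RefSeq promoter windows of 300 bases, from 250 bases before the start that RefSeq gives to 50 after it, were found for 8 of the 10 genes (9 windows, 2 of them for CD276). PDCD1LG2 and IDO1 were not matched. The stretches of 4 genes whose counts changed with decitabine in HUCCT1 are shown from the first base of the window up to the first GENCODE exon inside it, 5′ to 3′ on the strand of the gene, with CpG sites in capitals, since CpG sites are where DNA methyltransferases act. RefSeq and GENCODE starts are not the same base. The CD276 and CD47 stretches lie inside the GENCODE genes, after the first exon of a longer transcript model, and those of CD274 and VTCN1 lie before the GENCODE gene. Sequences are from RefSeq on GRCh38.p14.
CD274, chr9:5450292-5450502, plus strand: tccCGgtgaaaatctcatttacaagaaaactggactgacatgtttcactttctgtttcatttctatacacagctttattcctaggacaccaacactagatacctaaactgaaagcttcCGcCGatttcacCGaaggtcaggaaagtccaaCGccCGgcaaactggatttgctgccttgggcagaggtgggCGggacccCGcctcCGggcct
VTCN1, chr1:117210961-117211177, minus strand: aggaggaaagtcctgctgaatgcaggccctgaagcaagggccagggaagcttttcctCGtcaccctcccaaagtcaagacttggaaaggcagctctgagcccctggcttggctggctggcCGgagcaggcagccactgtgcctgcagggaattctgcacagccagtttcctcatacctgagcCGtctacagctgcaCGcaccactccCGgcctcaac
CD276, chr15:73684133-73684268, plus strand: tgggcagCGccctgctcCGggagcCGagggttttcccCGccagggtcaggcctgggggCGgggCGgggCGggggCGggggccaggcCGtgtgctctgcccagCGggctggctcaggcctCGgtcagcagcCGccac
CD47, chr3:108091032-108091281, minus strand: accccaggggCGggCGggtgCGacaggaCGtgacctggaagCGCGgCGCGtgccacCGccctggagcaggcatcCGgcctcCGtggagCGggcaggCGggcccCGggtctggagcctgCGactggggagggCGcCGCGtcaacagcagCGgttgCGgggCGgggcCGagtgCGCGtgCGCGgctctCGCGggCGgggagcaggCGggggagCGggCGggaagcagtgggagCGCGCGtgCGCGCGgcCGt

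The whole windows differed widely in CpG sites. The CD47 window held 45, the CD276 windows 37 and 28, the CD274 window 22 and the VTCN1 window 7, against a median of 14 over 35116 windows. PVR had 27, NECTIN2 26, TNFRSF14 12 and LGALS9 2. Patterns of IRF and AP-1 sites were searched on both strands. A pattern of IRF sites, GAAANNGAA, was found as 2 overlapping matches in the CD274 window and once in that of LGALS9, and was present in 8.1% of all windows. The AP-1 pattern TGANTCA was found once, in the VTCN1 window, and was present in 7.7% of windows. These are matches of letters. DNA methylation and factor binding were not analysed here.

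The EGI-1 libraries held 23139065 to 33181930 counts each and the HUCCT1 libraries 32519985 to 34965627. All 8 biliary epithelial markers had counts in every condition, although KRT7, a keratin of bile duct cells, was at 40.9 ± 2.52 CPM (counts scaled to the library size with TMM factors; SD, n = 2) in EGI-1 vehicle and at 6985 ± 746 in HUCCT1 vehicle. The second library of the EGI-1 combination stood apart. It held 381 counts of PTPRC (CD45, the pan-leukocyte antigen), against 1 to 7 in the other 11 libraries. Its 6 T cell markers (CD3D, CD3E, CD3G, CD2, TRAC and CD8A) summed to 515 counts or 17.0 CPM, against 19 in its partner library and 3 to 53 in all others, and none of the 6 was at 0. The summed level of 6 myeloid markers was 10.4 and 25.8 CPM in the combination libraries and 7.83 to 10.4 CPM in the other EGI-1 libraries. PTPRC is among these 6 and gave 12.5 of the 25.8 CPM, so this sum is not separate from the PTPRC counts. Combination values are therefore also given without that library where it changed a call or value, and the part of leukocyte RNA in them was not tested.

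TNFRSF14 and LGALS9 counts carry a further limit. All 243 windows of 100 bases tiled over the exons of TNFRSF14 (100%) had an exact copy on an alternate contig of GRCh38, and whether the index of the authors held alternate contigs is not given in the sources used here. For LGALS9, 39 of 225 windows (17.3%) had an exact copy elsewhere on chromosome 17, where the paralogs LGALS9B and LGALS9C lie. The share on alternate contigs was 0% for the other genes except IDO1 (2.3%).

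Across treatments, most of the ligand genes moved by less than 2-fold. In this text a change is a call at an adjusted p under 0.05 (edgeR quasi-likelihood test, Benjamini-Hochberg over all genes tested), and changes are log2 fold changes with their standard error (SE). IDO1 had too few counts to be tested within either line, so 9 of the 10 genes were tested there. In HUCCT1, decitabine changed 5 of 9: CD274, PDCD1LG2 and VTCN1 rose, and CD47 and CD276 fell. Over all 22479 genes tested 33.5% changed, 19.6% higher and 13.9% lower, and the median change was 0.00 against 0.10 for the ligand genes. Genes that mark other cell types moved with decitabine in HUCCT1 too. Of 6 tested fibroblast and endothelial markers 5 rose and 1 fell, among them CDH5 (4.81), PDGFRA (3.82) and PECAM1 (2.41), and the summed level of all 7 went from 12.2 to 16.2 CPM under vehicle to 33.3 to 33.9. The T cell marker CD3E (4.98, 0 to 1 counts against 17 to 23) and the myeloid marker ITGAM (2.00) rose, with CD3G, CD2 and CD163 at 0 in both conditions. Of 8 biliary markers 2 rose and 4 fell, with KRT18 at -0.90 and KRT8 at -0.82. The part of other cell types in the HUCCT1 values was not tested. In EGI-1, decitabine alone changed 0 of 9 ligand genes with edgeR and 0 of 8 with DESeq2, which gave TNFRSF14 no adjusted p, although 5 had an unadjusted p under 0.05, as had 9.14% of all genes. Of 22406 genes, 0.544% changed, with 0.518% of all genes higher.

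Talazoparib alone changed 4 of 9 ligand genes in EGI-1, with CD274, PDCD1LG2 and PVR higher and TNFRSF14 lower, where 4.12% of all genes changed (2.83% higher, 1.29% lower). Combination treatment changed 7 of 9. CD274, PDCD1LG2, VTCN1, LGALS9, NECTIN2 and PVR rose and TNFRSF14 fell, with a median of 0.37 over the 9 genes against -0.02 over all genes. Of all genes 18.7% changed, 11.1% higher and 7.61% lower. All 7 calls were also made without the second combination library. Markers of other cell types moved here as well. Of 3 tested fibroblast and endothelial markers VWF (1.64) and CDH5 (0.36) rose, with the summed level of all 7 at 19.8 to 21.4 CPM under vehicle and 29.0 to 30.1 under combination treatment and DCN and LUM at 0. Of 4 tested myeloid markers CSF1R (0.85) and LYZ (1.52) rose, and of 8 biliary markers SOX9 (0.93), KRT7 (0.70) and KRT8 (0.18) rose. Without the second combination library VWF (1.82), CSF1R (0.77) and the 3 biliary markers were still called. Their part in the ligand values was not tested. The 3 EGI-1 treatments were each compared with the same 2 vehicle libraries.

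**Figure D1:**
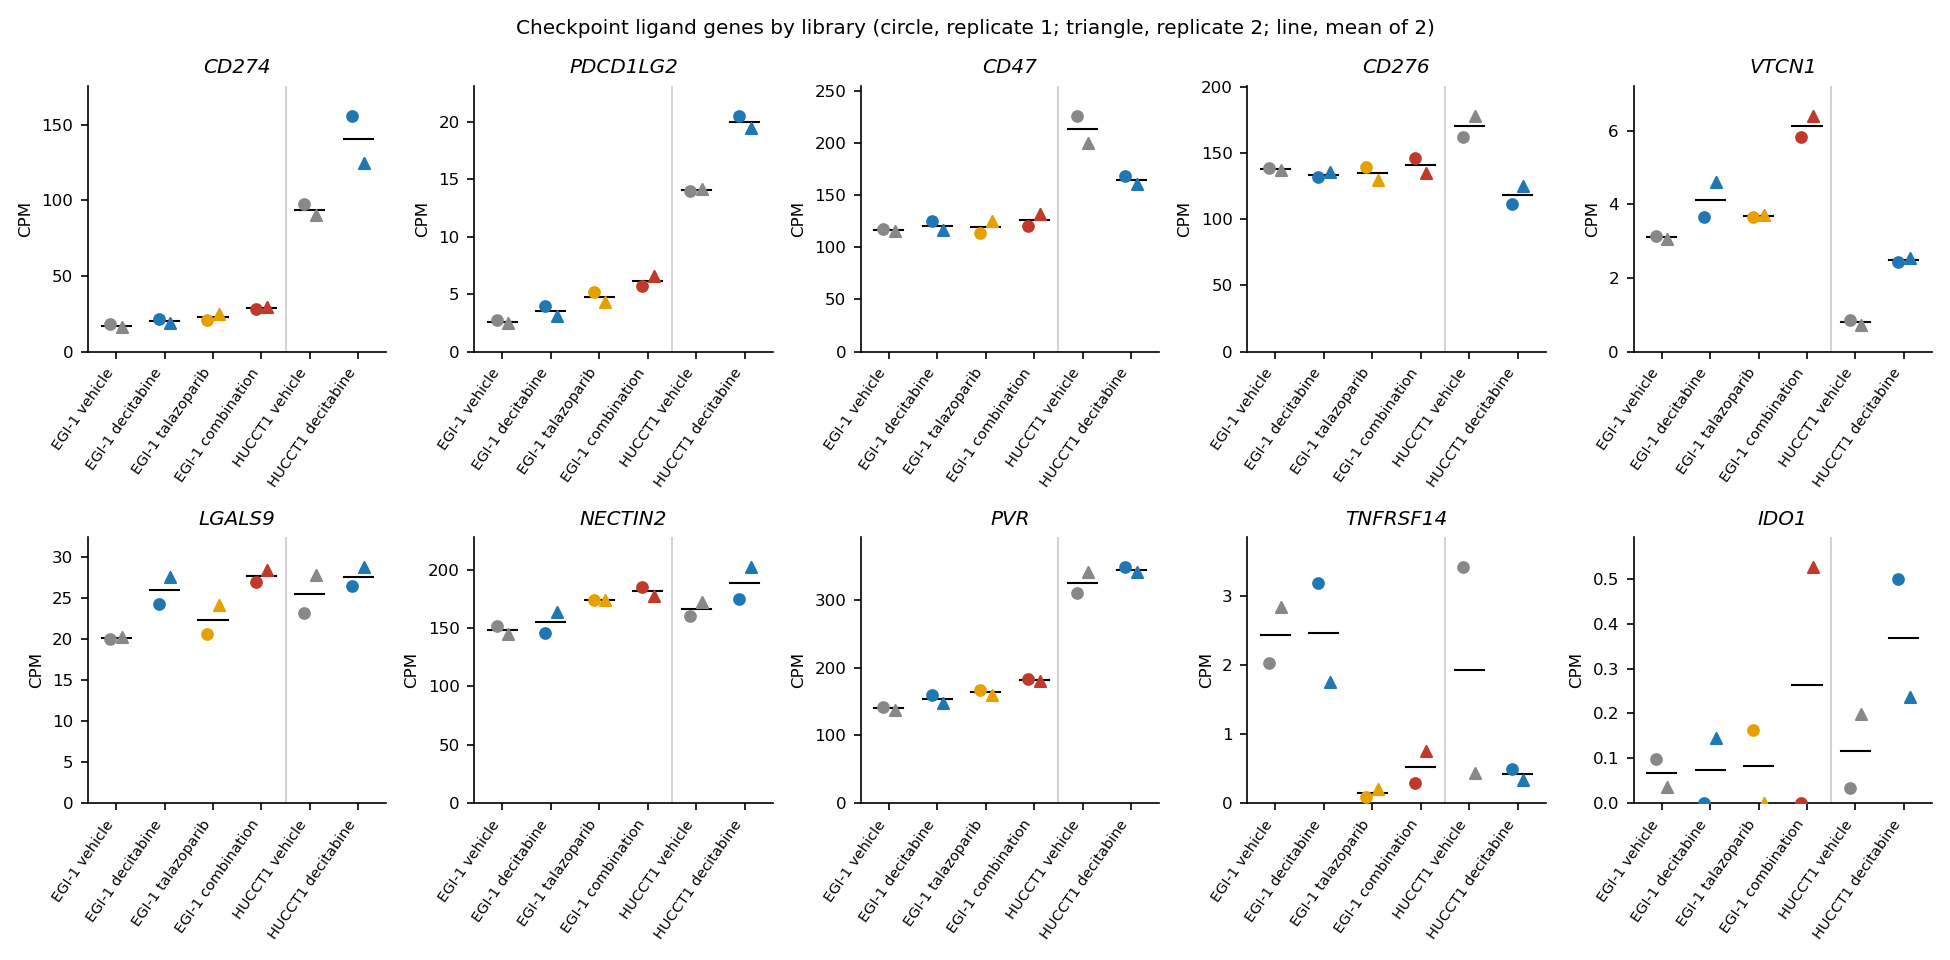
Level of each of the 10 genes in CPM (vertical axis, linear, from 0) in every library, by condition (horizontal axis); circles are first libraries, triangles second libraries, and lines the mean of 2. CD274 in HUCCT1 lies between 89.9 and 156 CPM and in EGI-1 between 16.5 and 29.5, while CD276 in EGI-1 stays between 130 and 146 under every treatment.

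**Figure D2:**
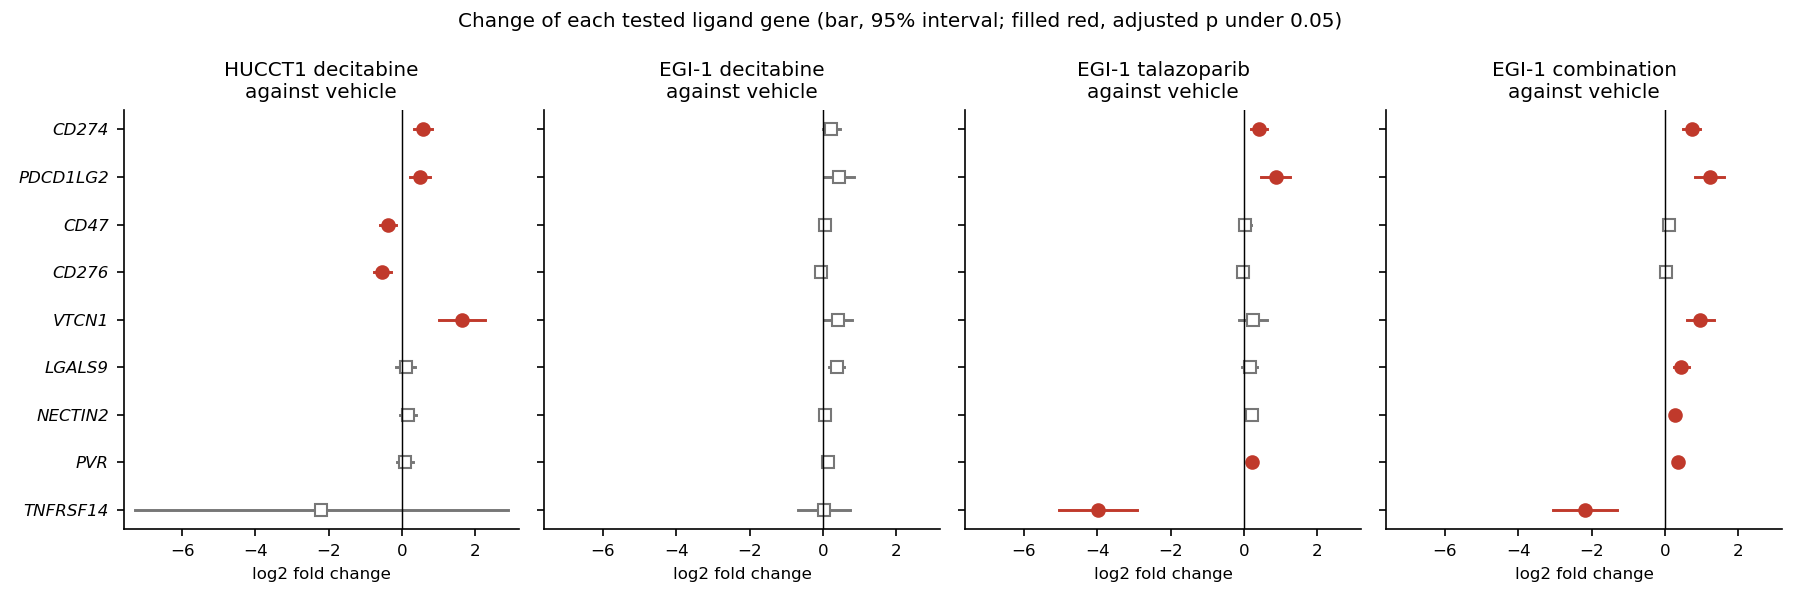
Log2 fold change of the 9 tested genes under each treatment against vehicle (horizontal axis) with its 95% interval; filled red circles have an adjusted p under 0.05, open squares do not. The combination panel holds 7 filled genes, the EGI-1 decitabine panel 0, and the interval of TNFRSF14 in HUCCT1 runs from -7.30 to 2.90.

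To compare the genes with each other, CPM were divided by the summed exon length of each gene. PVR shared 2028 of its 10427 exon bases with ENSG00000279095, a same-strand gene with 0 counts in every library, and 121 with CEACAM19. LGALS9 shared 294 of 5714 with ENSG00000266728, also at 0 counts. Whether reads from shared bases were counted is not known, and their part in the order below was not tested. In EGI-1 vehicle the highest level per length was that of NECTIN2, at 39.6 ± 1.33 CPM per kilobase of exon (SD, n = 2). CD276 followed at 25.1, CD47 at 14.1, PVR at 13.4, CD274 at 4.18 and LGALS9 at 3.53. PDCD1LG2 (1.07) and VTCN1 (1.03) were next, and their ranges over 2 libraries overlapped. TNFRSF14 was at 0.393 and IDO1 at 0.0193. In HUCCT1 vehicle NECTIN2 again had the highest level, 44.5 ± 2.36. PVR (31.2) and CD276 (31.1) overlapped, then came CD47 at 25.9 and CD274 at 22.8. PDCD1LG2 at 5.77 stood above LGALS9 at 4.48, and TNFRSF14 (0.310) and VTCN1 (0.262) overlapped. CD274 made up 13.7% of the summed level of the 10 genes in HUCCT1 vehicle and 4.08% in EGI-1 vehicle.

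**Figure D3:**
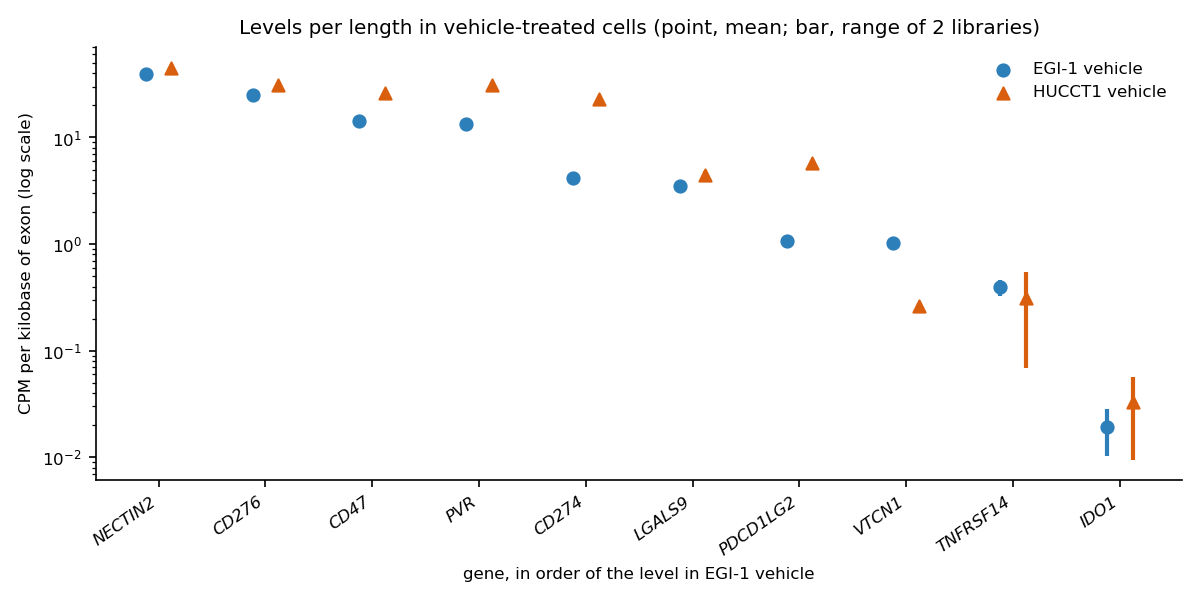
Level of the 10 genes in CPM per kilobase of exon (vertical axis, log scale) in vehicle-treated EGI-1 (circles) and HUCCT1 (triangles); points are means and bars the range of 2 libraries. CD274 is at 4.18 in EGI-1 and 22.8 in HUCCT1, and VTCN1 is the reverse, at 1.03 and 0.262.

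The lines were compared before treatment in 1 fit of all 12 libraries, which kept all 10 genes. CD274, PDCD1LG2, CD47, CD276, LGALS9 and PVR were higher in HUCCT1 and VTCN1 was lower, 7 of 10, where 55.8% of all genes differed (28.5% higher, 27.3% lower). The median difference was 0.53 for the 10 genes and -0.01 for all. For CD276 (0.31, SE 0.0798) and LGALS9 (0.34, SE 0.113) the call depended on scaling. With library totals in place of TMM factors the differences became 0.04 and 0.07 and with upper-quartile factors 0.19 and 0.22, while the median of all genes moved to -0.27 and -0.13. The LGALS9 call was also lost without the second HUCCT1 vehicle library (0.21) or either EGI-1 vehicle library (0.32 and 0.35).

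CD274 was the ligand gene with the largest line difference. It was at 17.9 and 16.5 CPM in EGI-1 vehicle and at 97.5 and 89.9 in HUCCT1 vehicle, with no overlap. The difference was 2.45 on the log2 scale (SE 0.114, adjusted p = 7.63e-14), a level 5.45 times higher in HUCCT1. PDCD1LG2 was at 2.76 and 2.45 CPM in EGI-1 and at 13.9 and 14.1 in HUCCT1. Its difference of 2.43 (SE 0.158, adjusted p = 2.1e-11) was close to that of CD274. Both calls held in all 20 alternative fits, with CD274 between 2.18 and 2.56.

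Decitabine raised both PD-1 ligand genes in HUCCT1. CD274 reached 156 and 124 CPM, above both vehicle libraries, a change of 0.57 (SE 0.118, adjusted p = 0.000463). PDCD1LG2 reached 20.6 and 19.4 CPM, a change of 0.50 (SE 0.133, adjusted p = 0.00447). In EGI-1, decitabine gave 21.4 and 18.7 CPM for CD274 (0.23, 95% interval 0.00 to 0.46, adjusted p = 0.537). PDCD1LG2 was at 3.96 and 3.11 CPM (0.45, interval 0.04 to 0.86, adjusted p = 0.484). The decitabine libraries lay above both vehicle libraries for both genes, but neither gene passed the test. Without the first EGI-1 decitabine library the changes were 0.13 for CD274 and 0.26 for PDCD1LG2.

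Under talazoparib CD274 was at 20.9 and 24.8 CPM in EGI-1, a rise of 0.41 (SE 0.106, adjusted p = 0.0336). PDCD1LG2 was at 5.18 and 4.35 CPM, a rise of 0.87 (SE 0.19, adjusted p = 0.0118). These calls were sensitive to single libraries and to the fit. That of CD274 was lost in 8 of 17 alternative fits, which were those without either vehicle library (0.47 and 0.35), the second talazoparib library (0.28) or the second combination library (0.41), with either block, without robust estimation and with all 12 libraries together (all 0.41). The PDCD1LG2 call was lost without either vehicle library (0.95 and 0.78) or the first talazoparib library (0.74).

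Combination treatment gave the highest levels of both genes in EGI-1. CD274 was at 27.8 and 29.5 CPM, above all 6 other EGI-1 libraries, and its change was 0.73 (SE 0.106, adjusted p = 9.47e-05), or 1.66-fold. PDCD1LG2 was at 5.68 and 6.58 CPM, and its change was 1.23 (SE 0.187, adjusted p = 0.000158), or 2.34-fold. Without the second combination library the changes were 0.69 and 1.12, both still called. The EGI-1 combination left CD274 below the level of untreated HUCCT1 cells.

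Measured against decitabine alone, combination treatment changed 4 of 9 ligand genes, against 7.68% of all genes (4.42% higher, 3.26% lower). CD274 rose by 0.50 (SE 0.105, adjusted p = 0.00574), PDCD1LG2 by 0.78 (SE 0.181, adjusted p = 0.0119) and PVR by 0.23 (SE 0.061, adjusted p = 0.0289), and TNFRSF14 was lower. VTCN1 (0.56, SE 0.168, adjusted p = 0.0506) and NECTIN2 (0.21, SE 0.0646, adjusted p = 0.0521) did not pass. Without the second combination library 1 of the 4 calls was left, that of TNFRSF14, which was itself lost when all 12 libraries were fitted together (adjusted p = 0.286), and CD274 (0.46, adjusted p = 0.0677), PDCD1LG2 (0.67) and PVR (0.25) no longer passed. The PDCD1LG2 call was also lost without the second decitabine library (0.63), and that of PVR without either vehicle library (both 0.23), the first combination library (0.21) or the second decitabine library (0.18), and in 3 further fits (block by library name series, only the arms compared, all 12 libraries together).

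Against talazoparib alone, VTCN1 was the only 1 of 9 to change, with 1.92% of all genes changed (1.36% higher). CD274 differed by 0.32 (interval 0.10 to 0.54, adjusted p = 0.157), and passed without either decitabine library (both 0.32), and PDCD1LG2 by 0.36 (interval -0.01 to 0.73). The CD274 difference was 0.21 without the first talazoparib library and 0.45 without the second. An interaction term compared the combination with the added log2 effects of both agents, and 0 ligand genes passed. DESeq2 also called 0 of 9, 1 (TNFRSF14) had an unadjusted p under 0.05, as had 3.38% of all genes, and 0.161% of all genes were called. For CD274 the departure was 0.09 (interval -0.23 to 0.40) and for PDCD1LG2 -0.08 (interval -0.64 to 0.47).

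The genes around CD274 on chromosome 9 differed between the lines in 1 direction. Of 22 listed neighbours 19 were tested, and 15 were higher in HUCCT1 vehicle and 0 lower, with a median of 0.71 against -0.01 for all genes, of which 28.5% were higher and 27.3% lower. JAK2, the kinase of interferon receptors, was 1.20 higher (SE 0.101, adjusted p = 1.48e-09), and PLGRKT, the gene just before CD274, 0.96 higher (SE 0.145). RIC1, just after PDCD1LG2, was 0.82 higher. The neighbour with the largest difference was INSL4, an insulin-like peptide gene, at 2 to 3 counts in EGI-1 and 40 to 48 in HUCCT1 vehicle (4.02, SE 0.596), followed by MLANA (1.44) and INSL6 (1.24). CD274 and PDCD1LG2 stood above 18 of the 19. Gene copy number was not analysed here.

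**Figure D4:**
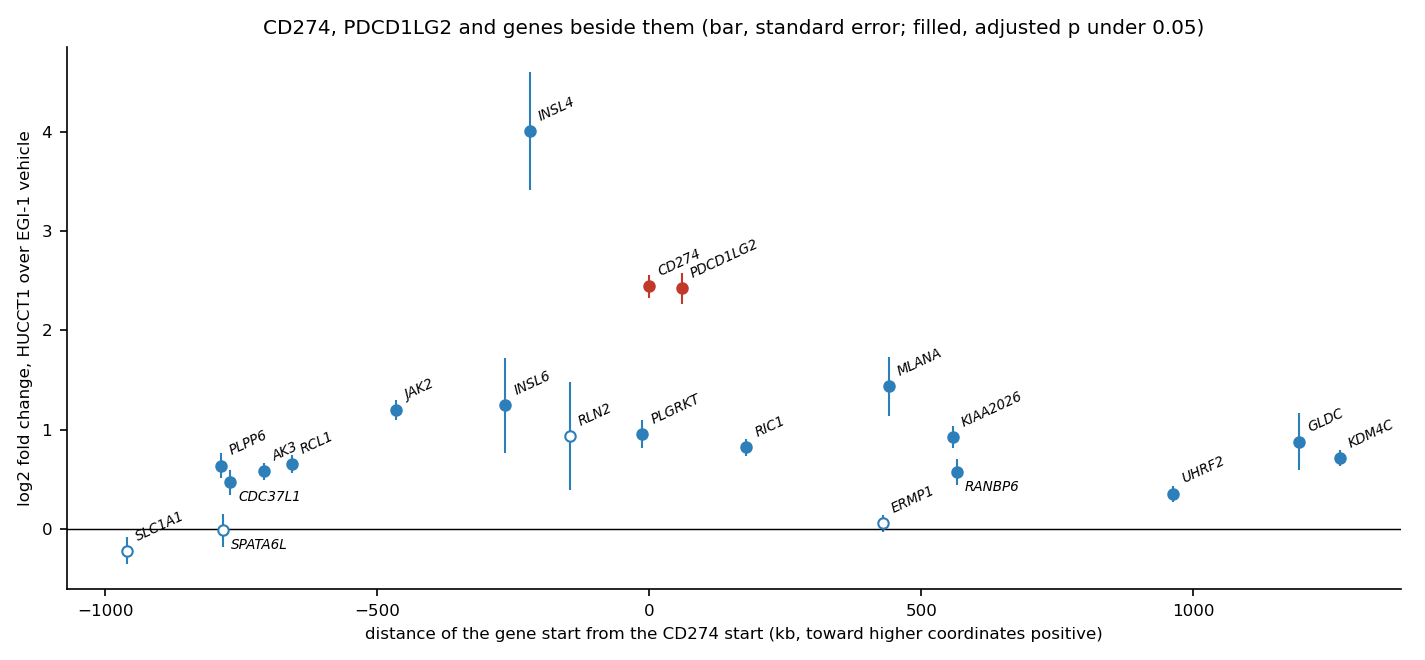
Log2 fold change of HUCCT1 over EGI-1 vehicle (vertical axis, bar 1 SE) for CD274 and PDCD1LG2 (red) and tested neighbours (blue) by distance of the gene start from that of CD274 in kb; filled points have an adjusted p under 0.05. PDCD1LG2 lies just to the right of CD274 with 2.43, PLGRKT at -12.6 kb with 0.96, and 4 neighbours are open points.

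Under decitabine in HUCCT1 and combination treatment in EGI-1 the neighbours moved in both directions. In EGI-1, decitabine alone and talazoparib alone each changed 0 of 18, where 0.544% and 4.12% of all genes changed. In HUCCT1, decitabine raised 5 of 19 (GLDC, INSL4, INSL6, JAK2 and RCL1) and lowered 2 (RANBP6 and SLC1A1), with a median of -0.00, where 19.6% of all genes rose and 13.9% fell. The largest changes were in GLDC, which makes glycine decarboxylase (1.42 to 9.99 CPM), INSL4 (1.65) and INSL6 (1.23). PLGRKT did not pass under decitabine in HUCCT1 (0.18, adjusted p = 0.323) or under combination treatment in EGI-1 (0.22, adjusted p = 0.376). Combination treatment raised 1 neighbour (AK3, 0.23) and lowered 2 (SLC1A1, -0.48, and KIAA2026, -0.37) of 18, where 11.1% of all genes rose and 7.61% fell. Without the second combination library AK3 (0.13) and SLC1A1 (-0.41) were not called.

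Of CD276 and VTCN1, the other B7 genes, decitabine lowered the former and raised the latter in HUCCT1. VTCN1 was a low gene in both lines. It was at 3.15 and 3.06 CPM in EGI-1 vehicle and at 0.857 and 0.727 in HUCCT1 vehicle (26 and 22 counts), lower in HUCCT1 by 1.97 on the log2 scale (SE 0.232, adjusted p = 2.5e-07). Decitabine raised it in HUCCT1 to 2.44 and 2.53 CPM (78 and 75 counts), a change of 1.63 (SE 0.306, adjusted p = 0.000151) and a 3.10-fold rise. These levels stayed below all 8 EGI-1 libraries.

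In EGI-1, VTCN1 was at 3.66 and 4.60 CPM under decitabine (0.41, adjusted p = 0.471) and at 3.67 and 3.72 under talazoparib (0.25, adjusted p = 0.549). It rose to 5.84 and 6.42 CPM under combination treatment, above all 6 other EGI-1 libraries, by 0.97 (SE 0.172, adjusted p = 0.000648), and by 0.91 without the second combination library. Against talazoparib alone the rise was 0.72 (SE 0.169, adjusted p = 0.0349). That call was lost without either vehicle library (both 0.72), either talazoparib library (0.72 and 0.73), the first combination library (0.79) or the second (0.66), with DESeq2, with the block by replicate number and with all 12 libraries together.

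CD276 was an abundant gene that decitabine lowered in HUCCT1. It was at 162.4 and 178.4 CPM under vehicle and at 111.3 and 125.4 under decitabine, with no overlap, and fell by 0.54 (SE 0.109, adjusted p = 0.000366). In EGI-1 it was at 139 and 137 CPM under vehicle and 132 and 135 under decitabine. It was at 139 and 130 CPM under talazoparib and 146 and 135 under combination treatment. The EGI-1 changes lay between -0.04 and 0.02 on the log2 scale, and the interval for combination treatment ran from -0.11 to 0.15.

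CD47, the macrophage checkpoint ligand, also fell with decitabine in HUCCT1. It was at 226.3 and 199.8 CPM under vehicle and at 168.5 and 160.2 under decitabine, a fall of 0.39 on the log2 scale (SE 0.109, adjusted p = 0.00748). The call was lost without the first vehicle library (-0.30) or the second decitabine library (-0.35). In EGI-1 all 8 libraries lay between 114 and 132 CPM, and 0 of the 3 treatments changed the gene. The change under combination treatment was 0.11 (interval -0.04 to 0.25, adjusted p = 0.327). Its level was higher in HUCCT1 than in EGI-1 vehicle by 0.87 (SE 0.0822, adjusted p = 8.32e-09).

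The decitabine changes of these genes differed between the lines by an interaction test. Of the 10 genes, 3 passed, with VTCN1 more raised in HUCCT1 and CD47 and CD276 more lowered, where 15.9% of all genes passed (8.74% higher, 7.2% lower). The difference was 1.24 (SE 0.306, adjusted p = 0.00736) for VTCN1, -0.48 (SE 0.113, adjusted p = 0.00506) for CD276 and -0.43 (SE 0.116, adjusted p = 0.0138) for CD47. The CD47 call was lost without the first HUCCT1 vehicle library (-0.35), the first EGI-1 decitabine library (-0.38) or the second EGI-1 vehicle library (-0.42). For CD274 the difference was 0.36 (interval 0.03 to 0.68, adjusted p = 0.136), and it passed only without the second HUCCT1 decitabine library (0.51). Without the first HUCCT1 decitabine library the difference was 0.18. For PDCD1LG2 it was 0.07 (interval -0.39 to 0.53). Decitabine was given at 1 µM in HUCCT1 and 0.5 µM in EGI-1, so line and dose cannot be told apart.

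PVR and NECTIN2, the ligands of TIGIT and CD226, both rose under combination treatment in EGI-1, and neither passed the test under decitabine in either line. PVR was at 142.1 and 137.2 CPM in EGI-1 vehicle, 159.5 and 148.1 under decitabine, 163.3 ± 5.24 (SD, n = 2) under talazoparib and 183.8 and 180.0 under combination treatment. Each treated group lay above the vehicle libraries. The rise was 0.37 (SE 0.0611, adjusted p = 0.000321) under combination treatment and 0.23 (SE 0.0611, adjusted p = 0.0432) under talazoparib, while decitabine gave 0.15 (adjusted p = 0.454). The talazoparib call was lost without either library of the vehicle (0.25 and 0.20), talazoparib (0.19 and 0.26) or combination group (both 0.23), with upper-quartile factors (0.21), with either block, without robust estimation and with all 12 libraries together (all 0.23).

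NECTIN2 was at 151.9 and 144.8 CPM in EGI-1 vehicle and at a mean of 154.8 under decitabine, where the lower library (145.6) lay between those of the vehicle. It was at 174.0 and 173.7 under talazoparib and at 185.0 and 177.7 under combination treatment. The rise under combination treatment was 0.28 (SE 0.0646, adjusted p = 0.00504). That call was lost without the first combination library or the second vehicle library (both 0.25). Under talazoparib the difference of 0.23 (interval 0.10 to 0.37) had an adjusted p of 0.0536, and it passed with DESeq2, without the filter on low counts, without either decitabine library and with only the arms compared.

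In HUCCT1, PVR was at 310 and 341 CPM under vehicle and 349 and 341 under decitabine (0.07, interval -0.14 to 0.29). NECTIN2 was at 160 and 173 under vehicle and 175 and 202 under decitabine (0.17, interval -0.05 to 0.40), and it passed with the block by replicate number (adjusted p = 0.0191). Without the second HUCCT1 decitabine library the NECTIN2 change was 0.07. PVR was higher in HUCCT1 than in EGI-1 vehicle by 1.22 (SE 0.0743, adjusted p = 6.55e-12). NECTIN2 did not pass between the lines (0.17, interval -0.01 to 0.34, adjusted p = 0.0942).

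LGALS9 was at 20.1 and 20.3 CPM in EGI-1 vehicle, 24.3 and 27.7 under decitabine, 20.6 and 24.2 under talazoparib and 27.0 and 28.4 under combination treatment. It rose under combination treatment by 0.45 (SE 0.0997, adjusted p = 0.00374) and by 0.42 without the second combination library. The call was lost without the first vehicle library (0.44). Under decitabine alone the difference was 0.37 (interval 0.16 to 0.58, adjusted p = 0.133), and it passed without the first decitabine library (0.47) or without the filter on low counts (0.38). In HUCCT1 it was at 23.2 and 27.9 under vehicle and 26.5 and 28.8 under decitabine (0.10, adjusted p = 0.58). LGALS9C, a paralog with exonic copies in common, was at 142 and 180 counts in HUCCT1 vehicle and at 356 and 388 under decitabine. In EGI-1 it was at 86 and 61 counts under vehicle and 129 and 136 under combination treatment (2.51 and 4.88 CPM), and the part of shared reads in the LGALS9 values was not tested.

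TNFRSF14 was the ligand gene with the least stable counts. EGI-1 vehicle had 62 and 79 counts and decitabine 96 and 48. Talazoparib had 2 and 7, and combination treatment 7 and 23, the latter in the library with leukocyte transcripts. The talazoparib and combination libraries lay below all vehicle and decitabine libraries. The change was -3.98 (SE 0.504, adjusted p = 0.000202) under talazoparib, and -4.825 without the second talazoparib library. Under combination treatment it was -2.17 (SE 0.409, adjusted p = 0.00131), and -3.07 without the second combination library. Summed counts were also compared after scaling to library size. On that scale 9 under talazoparib against 141 under vehicle was 16.0 times lower (95% counting interval 8.19 to 35.7). For combination treatment, 30 against 141 was 4.43 times lower (2.97 to 6.80). When all 12 libraries were fitted together neither call was made (adjusted p = 0.184 and 0.199). DESeq2 gave no adjusted p for the talazoparib change (-4.03).

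In HUCCT1, TNFRSF14 had 104 and 13 counts under vehicle and 16 and 10 under decitabine, so the groups overlapped and the first vehicle library stood apart. The change of -2.20 (SE 1.42, adjusted p = 0.387) was -0.05 without that library and -3.04 without the second vehicle library, where it was called. It was also called, with the same sign, without robust estimation and with a block by replicate number. Between the lines the difference was -0.33 (SE 0.779), and -2.48, a call, without the first HUCCT1 vehicle library. The largest CPM ratio between 2 libraries of a condition was 7.98 for TNFRSF14, against at most 1.27 for the 8 other tested genes. The part of the copied exons in this spread was not tested.

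IDO1 was close to silent in every condition. The HUCCT1 libraries had 1 and 6 counts under vehicle and 16 and 7 under decitabine. In EGI-1, vehicle had 3 and 1, decitabine 0 and 4, talazoparib 4 and 0, and combination treatment 0 and 16. The 16 counts lay in the library with leukocyte transcripts and 0 in its partner. The highest level in any library was 0.527 CPM. The gene was too low to test within a line, and in the fit of all 12 libraries the decitabine effect did not differ between the lines by a test with an interval of -2.94 to 6.17.

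**Figure D5:**
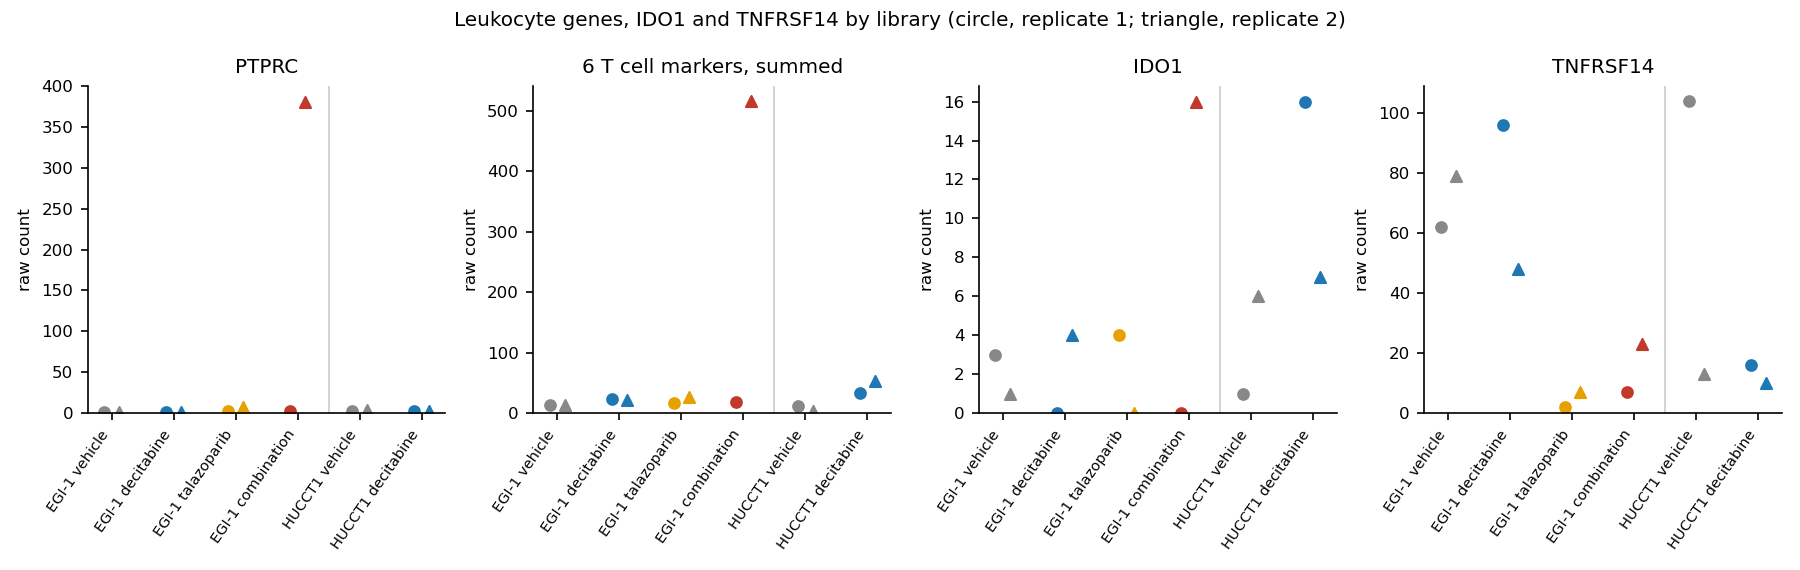
Raw counts (vertical axis, linear, from 0) of PTPRC, of 6 summed T cell markers, of IDO1 and of TNFRSF14 in every library by condition; circles are first and triangles second libraries. PTPRC is at 381 in the second combination library and at 7 or fewer elsewhere, and IDO1 is at 16 in that library and in the first HUCCT1 decitabine library.

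The interferon-gamma and JAK-STAT list holds genes of the route that induces CD274 and IDO1. In HUCCT1, 9 of its 16 tested genes rose with decitabine, 0 fell and 7 did not pass, with a median of 0.39, where 19.6% of all genes rose. SOCS1, a feedback inhibitor of JAK signalling, rose by 1.66 (2.77 to 8.87 CPM), CIITA, the activator of MHC class II genes, by 1.10 and the receptor chain IFNGR2 by 0.98. JAK2 rose by 0.44 (adjusted p = 0.00398) and IRF1 by 0.36 (SE 0.113, adjusted p = 0.0146). In EGI-1 decitabine called 0 of 16 and talazoparib 1, SOCS3, which was higher, where 0.544% and 4.12% of all genes changed. Combination treatment raised 5 and lowered 0 with a median of 0.18, namely IFNGR2 (0.78), SOCS3 (0.59), STAT2 (0.49), IFNGR1 and STAT3, where 11.1% of all genes rose. Without the second combination library STAT2 and SOCS3 were called and IFNGR2 (0.55, adjusted p = 0.0605), IFNGR1 and STAT3 were not. IRF1 was at 106 and 107 CPM in EGI-1 vehicle and at 105 and 104 under combination treatment (-0.04, adjusted p = 0.747). Between untreated lines, IRF1 was 1.29 lower in HUCCT1 (41.4 and 45.7 CPM) and CD274 was higher there, and a link between them was not tested. Of the list, 4 genes were higher and 8 lower in HUCCT1, where 28.5% of all genes were higher and 27.3% lower.

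Of 35 other surface ligands of checkpoint or costimulatory receptors, 27 were tested in HUCCT1, and 9 rose and 7 fell with decitabine (median 0.13), where 19.6% of all genes rose and 13.9% fell. The largest changes were in TNF and B7 family genes that were near 0 before treatment. CD70, the ligand of CD27, went from 0 to 2 counts per library to 77 to 101. HHLA2, a B7 family gene, went from 1 to 3 counts to 41 to 69. TNFSF14, which encodes LIGHT, the cytokine that binds TNFRSF14, went from 10 to 17 counts to 280 to 303 (4.39, SE 0.264, adjusted p = 1.08e-12). In EGI-1 combination treatment raised 6 and lowered 5 of 23, where 11.1% of all genes rose and 7.61% fell, and 4 were higher and 3 lower without the second combination library. CEACAM1, the ligand of TIM-3 and of itself, rose from 3.20 to 7.81 CPM (1.28) and CD24, the ligand of Siglec-10, from 30.0 to 72.9 CPM (1.27), while CEACAM6 fell by 0.63 on the log2 scale. In HUCCT1, CD24 was at 225.1 CPM under vehicle and 161.5 under decitabine. In EGI-1, talazoparib alone raised 3 and lowered 3 of 23, where 2.83% of all genes rose and 1.29% fell. Decitabine alone raised 1 and lowered 0, where 0.518% of all genes rose. CEACAM1 was at 5.439 CPM under decitabine alone and 5.975 under talazoparib alone, and CD24 at 38.8 and 50.04. CEACAM6 was at 11.15 CPM under vehicle, 13.55 under decitabine alone, 6.309 under talazoparib alone and 7.248 under combination treatment.

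The list of 12 receptors and other partners of the 10 proteins, TNFSF14 among them, holds mostly genes known from immune cells, and 7 of 12 were tested within each line. In HUCCT1 decitabine TNFSF14 and CD96 (1.15) were higher and TIGIT (-2.07) and CD160 lower, the 4 genes of the list called there, where 33.5% of all genes changed. Combination treatment called TIGIT alone (2.21, adjusted p = 0.0398), with 23 counts in the library with leukocyte transcripts and 9 in its partner, where 18.7% of all genes changed, and 0 were called without that library. SIRPA, the receptor of CD47, was at 474 to 550 counts in HUCCT1 vehicle and at 1 in both EGI-1 vehicle libraries.

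The tryptophan and kynurenine list holds genes of the route that IDO1 opens and also others, such as IL4I1 and CYP1B1, that are not steps of it. In HUCCT1, decitabine raised 8 of 14 tested genes, lowered 0 and left 6 that did not pass, with a median of 0.57, where 19.6% of all genes rose. QPRT, which consumes the kynurenine product quinolinate, went from 0 counts in both vehicle libraries to 68 and 84. IL4I1, an oxidase of aromatic amino acids, rose from 0.594 to 8.58 CPM (3.83, SE 0.247) and KYNU, kynureninase, from 31.8 to 102 CPM (1.68, SE 0.114). In EGI-1 combination treatment raised 3 of 15 (QPRT, IL4I1 and AFMID) and lowered 2 (CYP1B1 and KYNU), and AFMID was not called without the second combination library. Of all genes 11.1% rose and 7.61% fell. QPRT rose from 26.9 to 49.1 CPM (0.86) and IL4I1 by 0.59, and CYP1B1, a target of the aryl hydrocarbon receptor, fell by 0.92 on the log2 scale. Talazoparib alone raised 1 and lowered 2 of 15, where 2.83% of all genes rose and 1.29% fell. Decitabine alone changed 0 of 15, where 0.544% of all genes changed. QPRT was at 39.1 CPM under talazoparib alone. Under vehicle, talazoparib alone and combination treatment, KYNU was at 63.2, 41.2 and 45.4 CPM and CYP1B1 at 38.2, 27.1 and 20.3.

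A further list holds genes that act on the stability or modification of ligand proteins. In HUCCT1, decitabine raised 1 of 17 (ZDHHC9, a palmitoyltransferase, 0.55) and lowered 2 (CMTM6, which protects PD-L1 from lysosomal decay, -0.45, and the sheddase gene ADAM10, -0.42), where 19.6% of all genes rose and 13.9% fell. Under combination treatment 3 of 17 rose in EGI-1 and 4 fell (CUL3, STT3A, FUT8 and ADAM17), where 11.1% of all genes rose and 7.61% fell. QPCTL, which modifies CD47 at its SIRPA-binding end, rose by 0.56 and ZDHHC9 by 0.55, and CMTM6 rose by 0.28. Without the second combination library CMTM6 was at 0.15 (adjusted p = 0.263), and QPCTL, ZDHHC9 and STT3A were still called. Medians were 0.02 and -0.03.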

How the data were processed

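The deposited table held raw counts per gene, whole numbers that the authors did not normalize, for 12 libraries. The study's methods name fastp, STAR, GRCh38 and RSEM, whereas the submitters' processing notes name fastp, Trim Galore, HISAT2, featureCounts and GRCh38, and strand use in counting is not given in the sources used here. Of 60651 genes 60437 were matched to a symbol. Counts were fitted in edgeR 4.0.16 (R 4.3.3, limma 3.58.1) with filterByExpr by condition (minimum count 10, minimum total 15), TMM factors and a robust quasi-likelihood fit, and p-values were adjusted by Benjamini-Hochberg over all genes. The 8 EGI-1 libraries were fitted together, the 4 HUCCT1 libraries apart, and all 12 for comparisons of the lines. An adjusted p under 0.05 was a call. CPM use the TMM factors of the 12-library fit. Intervals are 95% and cover the spread between libraries, except that count ratios cover counting error only.

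All 10 genes were named. Of each other list, the 3 genes with the largest absolute change among those called in HUCCT1 decitabine, EGI-1 combination and between untreated lines could be named, as could JAK2, IRF1 and PLGRKT. RIC1, LGALS9C and other members of counts of 5 or fewer were named after their values were seen. The members and lists were chosen with earlier results of these data known. Alternatives were DESeq2 1.42.0, other scalings, no filter, a fit without robust, blocks, other sets of libraries and leaving out each library, and TNFRSF14 was left out after the data were seen. On simulated data for EGI-1 combination, the fit recovered 82 of 100 at a 2-fold change and 51 of 100 at 1.5-fold, and 12 of 21847 genes tested were false calls. For HUCCT1 decitabine these were 81, 58 and 26 of 21636. Set against the calls made, the share of false calls was above 0.05 in both simulations. The changed genes were drawn only from those above a floor of mean CPM, so recovery was not measured for lower genes. Between libraries of a condition the chi-square per gene was 2.73 to 12.6, above counting error alone, and every library was kept as its own replicate. This value cannot tell separate cultures from separate preparations of the same culture.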

Additional observations from a re-analysis of the deposited data

Results flagged for a closer look

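The decitabine effect differed between the 2 lines, by an interaction test, for 3 of the 10 genes, where 15.9% of all genes passed. The difference, HUCCT1 minus EGI-1 on the log2 scale, was -0.43 for CD47, -0.48 for CD276 and 1.24 for VTCN1. For CD276 and VTCN1 the call held in all 20 alternative fits, and for CD47 in 17 of 20. Line, dose, medium and the tag in the library names cannot be told apart.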

How the results depend on the processing

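Over 83 pairs of gene and comparison and 1401 alternative fits with an adjusted p (4 DESeq2 fits gave none), 83 fits changed a call, 0 reversed a called value, and 43 changed the sign of a value that was called in neither fit. Counts of ligand genes called that moved by over 1.5 times are given with the reported count first. For talazoparib (4), the fit without robust estimation, the replicate block by number and the block by series in the library names each gave 2, and all 12 libraries together gave 1. For combination against decitabine (4), all 12 libraries together gave 2. For combination against talazoparib (1), DESeq2, the replicate block by number and all 12 libraries together gave 0, and no filter gave 2. For EGI-1 decitabine (0), no filter gave 1. Smaller moves were 3 to 5 for talazoparib, 3 to 6 for combination against decitabine, 6 for combination against vehicle (7), 6 and 7 for HUCCT1 decitabine (5) without robust estimation and with the block by number, and 5 for the untreated lines (7). Leaving out 1 library gave 1 to 5 for talazoparib, 1 to 4 for combination against decitabine, 0 to 2 for combination against talazoparib, 0 to 1 for EGI-1 decitabine, 6 to 7 for combination against vehicle, 4 to 6 for HUCCT1 decitabine and 2 to 4 for the line difference of the decitabine effect, with the lone library of a condition assumed to vary like the others. Libraries of 1 number did not deviate together (correlations from -0.06 to 0.09), so the numbers do not pair them. With 2 libraries per condition, a ligand gene that was not called may still differ, within the intervals given.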
